A study of Homo sapiens with 4 samples.

Results

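The genes described here make and break down glycogen, the branched glucose polymer that cells keep as a sugar store. They are 9 of the 19777 genes that the array's annotation lists alone on at least 1 probe set (PGM1, PGM2, UGP2, GYS1, GBE1, PYGL, PYGB, PPP1R3B and PPP1R3C), taken by name with every probe set listed for that gene alone, which gave 16 probe sets. Gene expression was measured in HCT116, an established human colon cancer cell line, on 4 arrays. All cells went without serum for 24 h. Those of 2 arrays then spent 72 h at 1% oxygen (hypoxia) and those of the other 2 arrays spent it at 21% oxygen (normoxia), and nothing else differs between the groups in the labels. The sample titles call the arrays of each group exp A and exp B, here letters A and B. No label says whether these were separate cultures, so p-values measure a spread that may be technical.

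Glucose enters the store as glucose 6-phosphate. Phosphoglucomutase turns this into glucose 1-phosphate, UGP2 couples that to UTP to give UDP-glucose, glycogen synthase (GYS1 outside the liver) adds the glucose to a growing chain, and the branching enzyme GBE1 moves pieces of chain to form branches. Glycogen phosphorylases (PYGL, the liver form, and PYGB, the brain form) release glucose 1-phosphate again. PPP1R3B and PPP1R3C bring protein phosphatase 1 to the glycogen particle, where it switches the synthase on and the phosphorylase off. Glycogen storage rises in several cell types at low oxygen, and GYS1, GBE1, PGM1, UGP2 and PPP1R3C have been described elsewhere as genes that hypoxia or its transcription factor HIF can raise.

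HIF binds DNA at a short core, read as ACGTG or GCGTG on either strand. The 250 bases before an annotated gene start were taken from RefSeq (GRCh38.p14). They are shown for PGM1 and GBE1, with the largest increases among members bright enough to be tested, and for GYS1, with the largest decrease. Each core letter match is in capitals (CACGT and CACGC are the same words on the other strand). The PGM1 window is chr1:63593161-63593410 on the plus strand, the GBE1 window chr3:81761646-81761895 on the minus strand and the GYS1 window chr19:48993310-48993559 on the minus strand.
PGM1: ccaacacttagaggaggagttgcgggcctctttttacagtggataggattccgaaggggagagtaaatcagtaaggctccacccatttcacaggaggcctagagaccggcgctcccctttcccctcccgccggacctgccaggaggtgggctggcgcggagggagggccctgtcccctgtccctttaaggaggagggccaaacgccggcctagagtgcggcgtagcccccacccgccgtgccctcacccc
GBE1: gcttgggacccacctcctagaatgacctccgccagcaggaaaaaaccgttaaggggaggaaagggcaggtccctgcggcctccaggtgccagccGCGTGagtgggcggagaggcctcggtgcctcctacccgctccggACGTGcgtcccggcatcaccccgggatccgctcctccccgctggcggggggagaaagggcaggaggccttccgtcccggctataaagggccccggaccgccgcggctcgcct
GYS1: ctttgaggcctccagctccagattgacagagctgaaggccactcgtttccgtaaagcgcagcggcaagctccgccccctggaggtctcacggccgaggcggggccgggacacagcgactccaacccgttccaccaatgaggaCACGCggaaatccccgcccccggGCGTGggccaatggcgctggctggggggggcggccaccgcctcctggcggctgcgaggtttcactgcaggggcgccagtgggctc

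The GBE1 window held 2 such words, ACGTG at 112 to 108 bases before the start and GCGTG at 156 to 152. The GYS1 window also held 2, both of the GCGTG kind, at 108 to 104 and 85 to 81 bases. This PGM1 window, the first of 3 listed for that gene, held 0. The next one (chr1:63593559-63593808), not shown, held 3, among them ACGTG at 26 to 22 bases before its start. That window lies downstream of the first PGM1 start, so it is upstream only of a later annotated start. The third held 0, so all core words of PGM1 rest on this later window. Of the 9 genes, 8 were matched to 11 windows, and 8 of these 11 held at least 1 core word, against 43.2% of all 35116 windows of this length. ACGTG was in windows of 5 genes (PGM1, PGM2, UGP2, GBE1 and PPP1R3C), and in 18.5% of all windows. The PPP1R3C window held 4 words, of which 2 overlap as the palindrome CACGTG, and PGM2 had the same overlap. The members' windows were 51.2% to 76.4% G and C against a median of 58.0% over all windows, and the words themselves hold CG. Only the third PGM1 window (51.2%) lay under that median, and all others held at least 64.4%. The share with a core word was not adjusted for this. A match of these letters is a description of the sequence and does not show a site in use.

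Values are MAS5 signals, the linear brightness summary of a probe set in arbitrary units, given per array or as mean ± SD with n = 2 arrays. A probe set was tested with limma when its mean over the 4 arrays reached 97.4, the median of all probe sets. Of the 16 probe sets, 11 did. At a Benjamini-Hochberg adjusted p under 0.05 over all tested probe sets, 3 of the 11 were called higher in hypoxia and 4 lower, where 13.7% of the 27304 tested probe sets were called higher and 17.1% lower. The higher ones belonged to PGM1, GBE1 and UGP2, and the lower ones to GYS1, PYGB, PGM2 and PYGL. The median log2 difference of the 11 was -0.42 against 0.05 over all tested, and they ran from -3.32 to 1.80. PGM2 and PPP1R3B count more than once in that median. With each gene taken by its probe set with the highest mean, the 8 tested genes had a median of -0.06. That of all tested genes was -0.03, so per gene the members showed no clear lean. The members thus moved in both directions.

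**Figure D1:**
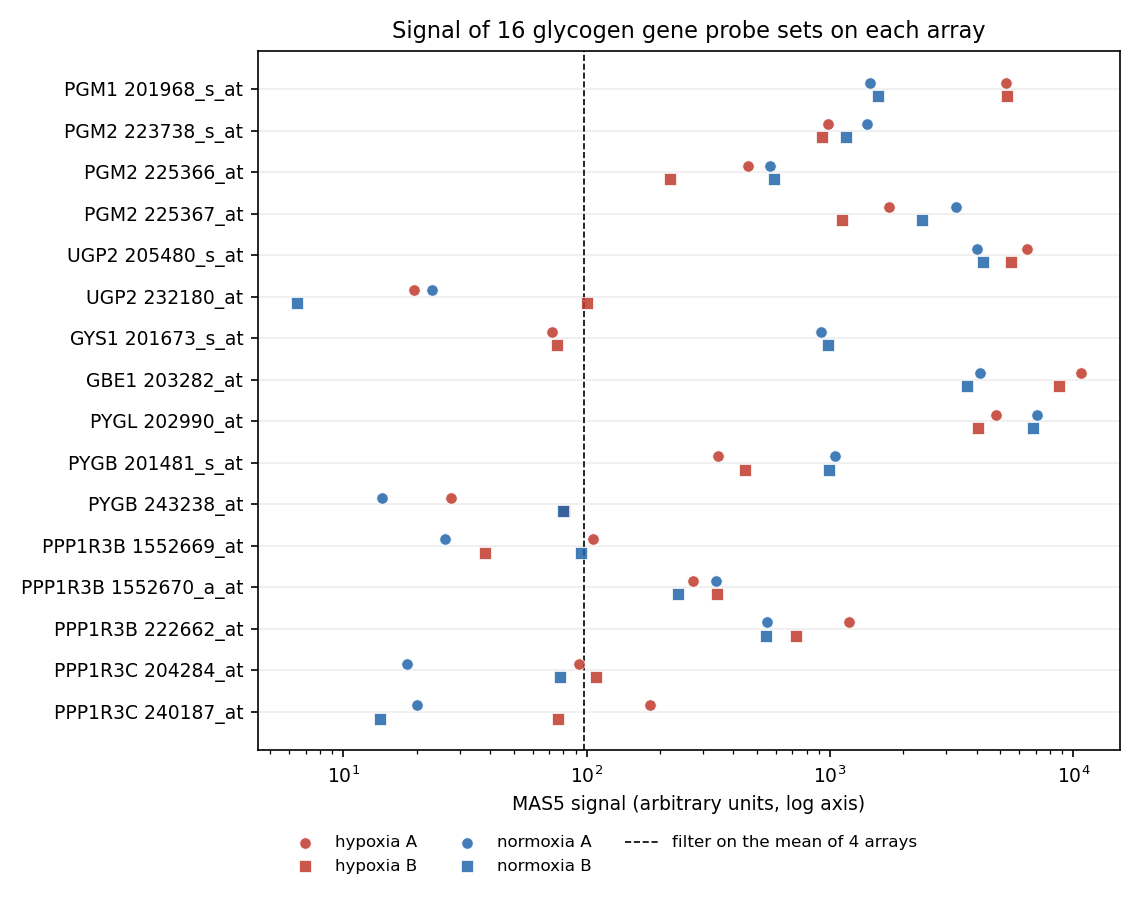
MAS5 signal (log axis) of the 16 probe sets of the 9 genes on each of the 4 arrays, red for hypoxia and blue for normoxia, circles for letter A and squares, drawn slightly lower, for letter B. The dashed line is the filter of 97.4 on the mean of the 4 arrays; the hypoxia points of GYS1 lie at 71.9 and 75.5, left of the line, and its normoxia points at 916 and 979.

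The following facts of the arrays bear on every value below. The median SD between the 2 arrays of a group was 0.30 on the log2 scale in hypoxia and 0.17 in normoxia. The ratio of the 3′ to the 5′ control probe set of ACTB, a sign of RNA integrity, was 1.66 and 1.77 in hypoxia against 1.26 and 1.28 in normoxia, while that of GAPDH overlapped (0.912 to 0.955 and 0.918 to 0.996), and their part in the results was not tested. The labelled cell type was checked by its markers. EPCAM, CDH1, KRT8, KRT18 and KRT19 had signals of 4913 to 36348 on all arrays. Of 10 epithelial markers 8 were tested and 3 were called higher, where 14.5% of 12636 tested genes were. VIL1, CDX1, CDX2, LGALS4 and CEACAM5 were low, at 8.09 to 532. Of 10 markers of leukocytes, endothelium and fibroblasts, 5 were tested and 1 (COL1A1) was called higher. The summed signal of these 10 was 2605 to 3044 in hypoxia and 833 to 1527 in normoxia. Arrays had been scaled by the authors to a common mean, so directions are relative to the other genes. Scaling to the hybridization controls instead moved the median of all tested probe sets by -1.36 and gave 110 probe sets called higher and 10150 lower, in place of 3738 and 4668, and those values are given below relative to that median.

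Among the enzymes that supply activated glucose, PGM1 rose and PGM2 fell, while UGP2 rose slightly. PGM1, the main phosphoglucomutase, had signals of 5296 and 5357 in hypoxia and 1459 and 1566 in normoxia. Arrays of 1 group lay close together and the groups stood well apart, a 3.52-fold difference. The log2 difference, taken throughout as hypoxia minus normoxia of log2(signal + 23.7), was 1.80 ± 0.17 SE (limma adjusted p = 1.52e-04), and 5.03% of tested probe sets had a difference at least as high. It was 1.84 within letter A and 1.76 within letter B, and 1.75 to 1.85 with any 1 array left out. Scaled to the hybridization controls it was 0.36 and not called (adjusted p = 0.693), which lay 1.67 above the median there.

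PGM2 acts mainly on phosphopentoses, with a lesser phosphoglucomutase activity. Its brightest probe set (225367_at) had 1744 and 1121 in hypoxia and 3301 and 2377 in normoxia, with no overlap but a wide spread within both groups. The log2 difference was -0.99 ± 0.26 SE (limma adjusted p = 0.0172). Leaving out normoxia A ended this call (-0.76, adjusted p = 0.208). Probe set 223738_s_at had 978 and 926 against 1416 and 1166 (log2 difference -0.42, adjusted p = 0.163). Probe set 225366_at had 461 and 219.7 against 565 and 589.97 (-0.81, adjusted p = 0.136), and passed without hypoxia A (-1.30, adjusted p = 0.00309), while without hypoxia B it was -0.31 (adjusted p = 0.323). In each of the 3, both hypoxia values lay under both normoxia values, but only 225367_at was called. PGM2L1, a related gene whose product makes glucose 1,6-bisphosphate, was not called (log2 difference 0.77, adjusted p = 0.149).

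UGP2, which makes the UDP-glucose that glycogen synthase uses, had signals of 6418 and 5513 in hypoxia and 4028 and 4251 in normoxia. The groups did not overlap, and the mean was 1.44-fold higher in hypoxia (log2 difference 0.52 ± 0.17 SE, limma adjusted p = 0.0451). The call was near the threshold. It ended when normoxia A was left out (0.48, adjusted p = 0.252), and also on leaving out normoxia B (0.56, adjusted p = 0.171) or, narrowly, hypoxia A (0.41, adjusted p = 0.0533). Scaled to the hybridization controls the sign turned (-0.93), 0.38 above the median there. A second probe set of UGP2 (232180_at) was near the bottom of the scale, at 19.6 and 99.8 in hypoxia and 23.1 and 6.45 in normoxia, with overlapping groups, and was not tested.

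The chain-building enzymes GYS1 and GBE1 went opposite ways. GYS1, the glycogen synthase of most tissues, had 71.9 and 75.5 in hypoxia and 916 and 979 in normoxia. The means were 73.7 ± 2.52 and 947 ± 44.3, a measured ratio of 12.9 that rests on hypoxia values near background. The log2 difference was -3.32 ± 0.37 SE (limma adjusted p = 3.39e-04), -3.30 within letter A and -3.34 within letter B, and 0.505% of tested probe sets lay as low or lower. It stayed called under all settings tried, with -3.36 to -3.27 when 1 array was left out and -3.30 relative to the median when scaled to the hybridization controls.

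The GYS1 signal in hypoxia was near the low end of the scale. Both hypoxia values lay under the 97.4 of the filter, so the probe set was tested only because of its normoxia signal, and under the brightest Bacillus control probe set of the same arrays (305 on hypoxia A and 226 on hypoxia B). The normoxia values lay above theirs (45.7 and 121). With those control signals as the floor in hypoxia, the GYS1 signal was at least 3.60-fold lower there (from means of log2 signals). Only 1 probe set (201673_s_at) was listed for GYS1 alone, and its suffix marks probes shared by more than 1 transcript, so no second probe set bears on this difference.

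GBE1, the branching enzyme, had 10698 and 8688 in hypoxia and 4145 and 3662 in normoxia. Each hypoxia array was above both normoxia arrays, with means of 9693 ± 1422 and 3904 ± 342 and a 2.48-fold rise (log2 difference 1.30 ± 0.18 SE, limma adjusted p = 9.18e-04). Within letter A it was 1.36 and within letter B 1.24, and 11.7% of tested probe sets had one at least as high. It stayed called without any 1 array (1.15 to 1.45). Scaled to the hybridization controls the sign turned (-0.15, adjusted p = 0.857), 1.16 above the median there.

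**Figure D2:**
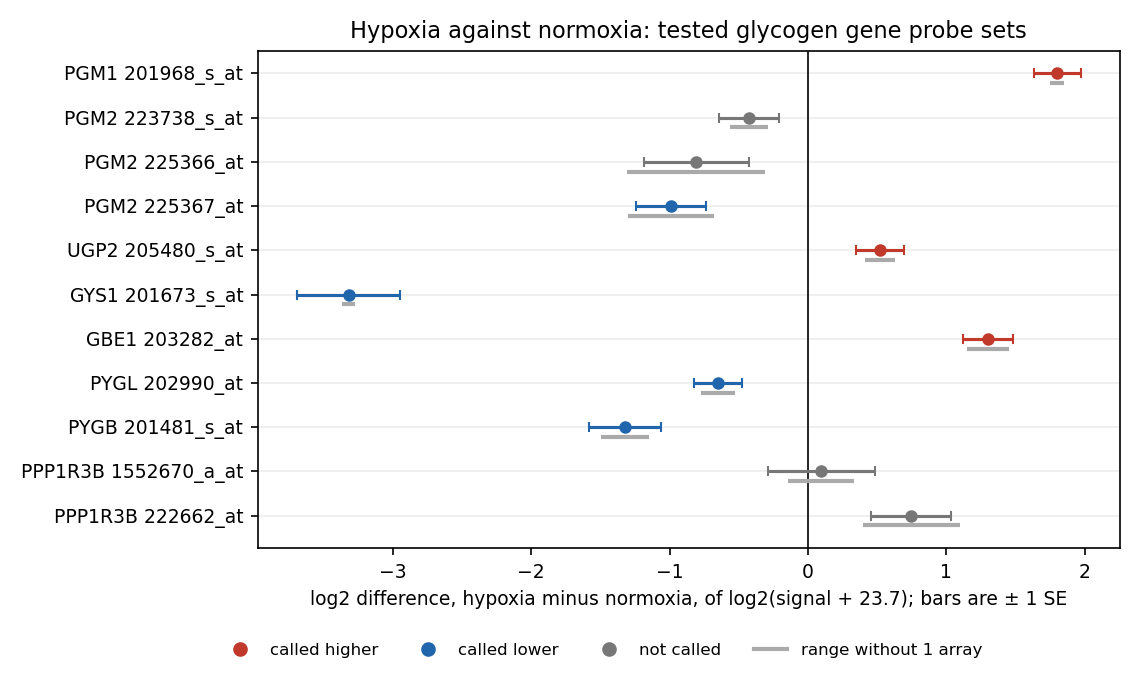
Log2 difference between hypoxia and normoxia of the 11 tested probe sets, with bars of ± 1 SE from limma and grey bars for the range when 1 array is left out; red and blue points were called higher and lower. GYS1 at -3.32 lies far from the rest, and GBE1 at 1.30 and PGM1 at 1.80 lie on the other side, though with arrays scaled to hybridization controls GBE1, UGP2 and both PPP1R3B probe sets turn negative.

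Both glycogen phosphorylase genes fell in hypoxia. PYGL, the liver form, had 4811 and 4068 in hypoxia and 7096 and 6810.15 in normoxia, without overlap, a 1.57-fold fall (log2 difference -0.65 ± 0.17 SE, limma adjusted p = 0.0191). The call ended on leaving out normoxia A (-0.62, adjusted p = 0.131) or else normoxia B (-0.68, adjusted p = 0.0898), and when arrays were scaled to their 75th percentile (-0.50, adjusted p = 0.0523).

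PYGB, the brain form, which many tumour cells also express, had 347 and 447 in hypoxia and 1050.12 and 994 in normoxia. The mean fell 2.57-fold (log2 difference -1.32 ± 0.26 SE, limma adjusted p = 0.00508), with -1.53 within letter A and -1.11 within letter B. Without normoxia A it was -1.28 (adjusted p = 0.0826) and without normoxia B -1.36 (adjusted p = 0.0624), neither of which is a call. The second probe set of PYGB (243238_at) was dim on all arrays (27.5 and 80.9 against 14.4 and 79.5), overlapped between groups and was not tested. Whether PYGB fell more than PYGL was not tested.

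The phosphatase targeting subunits gave no call. PPP1R3B, which is known for its role in the liver, had 3 probe sets. On 222662_at the signal was 1198 and 727 in hypoxia and 548 and 547 in normoxia, so that both hypoxia values were higher but far from each other (log2 difference 0.75 ± 0.29 SE, limma adjusted p = 0.0794). It passed without hypoxia B (1.10, adjusted p = 0.00114), while without hypoxia A it was 0.40 (adjusted p = 0.173). It also passed when scaled to the 75th percentile (0.89, adjusted p = 0.0407), and it turned negative when scaled to the hybridization controls (-0.67), 0.64 above the median there. Probe set 1552670_a_at, at 272 and 344 against 340.4 and 238, overlapped between the groups (0.10 ± 0.39 SE, adjusted p = 0.871). The third, 1552669_at, was untested at 107 and 38.3 against 26.2 and 94.3.

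PPP1R3C, also called protein targeting to glycogen, was near background on both of its probe sets, and neither was tested. Probe set 240187_at had 182 and 76.2 in hypoxia and 20.1 and 14.2 in normoxia, and 204284_at had 93.2 and 109 against 18.3 and 77.5. Both hypoxia values were above both normoxia values in each, with log2 differences of 1.82 and 0.93. All of these 8 values lay under the brightest Bacillus control of their own array, and without the filter on signal neither was called (adjusted p = 0.231 and adjusted p = 0.584). A change of PPP1R3C was thus not measurable here.

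**Figure D3:**
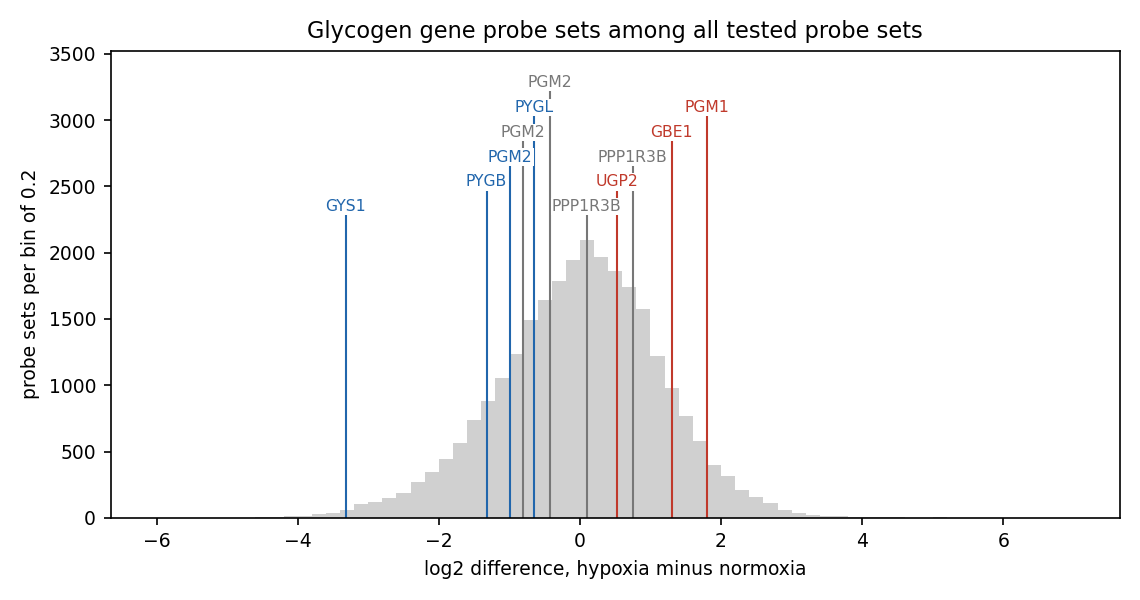
Histogram of the log2 difference of all 27304 tested probe sets in bins of 0.2, with a line for each of the 11 tested member probe sets (red called higher, blue called lower, grey not called). GYS1 stands in the lower tail, where 0.505% of probe sets lie as low or lower, and the highest member is PGM1, with 5.03% as high or higher.

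The rest of the pathway was taken from a list of 29 genes, of which 26 had a probe set of their own and 18 were tested, each by its probe set with the highest mean. Of these 18, 3 were called higher and 4 lower, and 11 were not called, where 14.5% of 12636 tested genes were called higher and 21.7% lower. Their median log2 difference was -0.45 against -0.03 over all tested genes. The 4 that fell were G6PC3, SLC37A4, PHKB and PPP1CA, and the 3 called higher were PHKG1, PPP1CC and GSK3B, though PPP1CC and GSK3B turned negative when scaled to the hybridization controls (-0.85 and -0.86, or 0.46 and 0.45 above the median there).

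The largest falls among the 18 were those of G6PC3 and SLC37A4, which act where glucose 6-phosphate is turned into free glucose in the endoplasmic reticulum. G6PC3, the glucose 6-phosphatase found in most tissues, had 57.8 and 124 in hypoxia and 1502 and 1622 in normoxia (log2 difference -3.85 ± 0.37 SE, limma adjusted p = 1.68e-04), at least 5.94-fold lower in hypoxia against the same floor. Its hypoxia mean (90.8) lay under the filter, so this probe set was tested only because of its normoxia signal. The other tested probe set of G6PC3 also fell (-2.38, adjusted p = 0.0170). Its hypoxia values (196.6 and 34.7) both lay under the brightest Bacillus control of their array. SLC37A4, the transporter that carries glucose 6-phosphate into the endoplasmic reticulum, had 46.3 and 239 against 1014 and 960.04 (-2.90 ± 0.56 SE, limma adjusted p = 0.00443). The other probe set of SLC37A4 fell too (-1.87, limma adjusted p = 0.00441), with hypoxia values of 180.5 and 138.7, also under those controls. Without hypoxia A the difference of SLC37A4 was -1.94 and without hypoxia B -3.85. Of the hypoxia values of these brighter probe sets, only that of SLC37A4 on hypoxia B (239) lay above the brightest Bacillus control of its array (226). G6PC1, the liver form of the phosphatase, did not reach the filter, with 209.7 and 13.6 in hypoxia and 7.71 and 6.61 in normoxia.

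Phosphorylase kinase, which switches phosphorylase on, is built of 4 kinds of subunit. PHKB, the beta subunit, fell from 738 ± 78.4 to 260.3 ± 124 (log2 difference -1.49 ± 0.37 SE, limma adjusted p = 0.0148), and all 3 of its tested probe sets were called lower. The dimmer ones had hypoxia values of 123.7 and 78.9, and of 138.5 and 6.43. All of these lay under the brightest Bacillus control of their array (305 on hypoxia A and 226 on hypoxia B). So did the brightest probe set on hypoxia B (172). The one with 138.5 and 6.43 passed the filter only through normoxia (420 and 446), so it could only come out lower. On the brightest, leaving out normoxia A (-1.39, adjusted p = 0.120) or else normoxia B (-1.60, adjusted p = 0.0614) ended the call. PHKG1, a catalytic subunit known from muscle, was called higher, with 38.7 ± 34.0 in normoxia and 272 ± 111 in hypoxia (2.31 ± 0.76 SE, adjusted p = 0.0465). It passed the filter only through hypoxia, where it had to be higher, and its value on hypoxia A (193) lay under the brightest Bacillus control there (305). Only leaving out hypoxia A kept its call, which ended on leaving out normoxia A (2.89, adjusted p = 0.0754), on leaving out normoxia B (1.72, adjusted p = 0.181) and on leaving out hypoxia B (1.92, adjusted p = 0.136). PHKA1 (0.57), PHKA2 (-1.10) and PHKG2 (-0.30) were not called.

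Protein phosphatase 1, the enzyme that the PPP1R3 subunits bring to glycogen, has 3 catalytic genes. PPP1CA fell from 7014 ± 73.5 to 3988 ± 455 (log2 difference -0.82 ± 0.17 SE, limma adjusted p = 0.00659) and PPP1CC rose from 13627 ± 268 to 20748 ± 596 (0.61 ± 0.17 SE, adjusted p = 0.0257). The call of PPP1CC ended on leaving out hypoxia A (0.58, adjusted p = 0.0590) and under quantile normalization (0.15, adjusted p = 0.340). PPP1CB was not called on its brightest probe set (0.39, adjusted p = 0.211), and its other probe sets disagreed, with 1 called higher (0.71) and 1 lower (-1.06).

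Of the glycogen synthase kinases, which phosphorylate and hold back the synthase, GSK3B rose on its brightest probe set from 3112 ± 71.0 to 4703 ± 269 (log2 difference 0.59 ± 0.17 SE, limma adjusted p = 0.0249). Leaving out normoxia A (0.61, adjusted p = 0.163) or else normoxia B (0.57, adjusted p = 0.195) ended that call. Of the other tested GSK3B probe sets, 1 was called higher (1.91), 1 was positive but not called (0.47) and 1 was called lower (-3.02). The one called lower had 9.16 and 94.8 in hypoxia, under the filter value and under the brightest Bacillus control of their array. It passed the filter only through normoxia (431 and 537), so it could only come out lower. The tested probe sets of GSK3B thus differed in direction, but only through this dim one. GSK3A was not called (0.49, adjusted p = 0.184), while its other probe set was (1.61, adjusted p = 0.0226). GYG1, whose product glycogenin starts a new glycogen particle, was not called (-0.45, adjusted p = 0.129), nor was GAA, the lysosomal enzyme that degrades glycogen (-0.50, adjusted p = 0.102). The muscle and liver genes PYGM and GYS2 did not reach the filter.

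**Figure D4:**
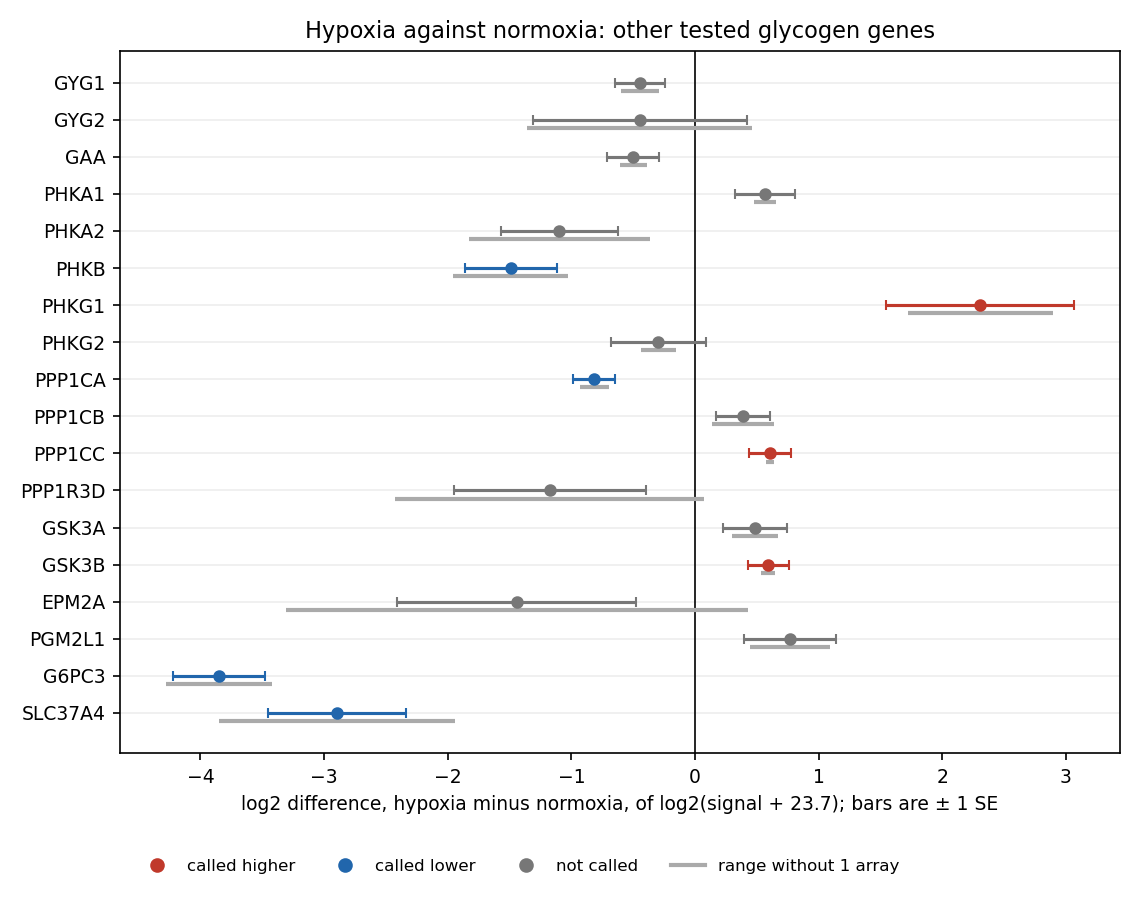
Log2 difference between hypoxia and normoxia of the 18 other tested glycogen genes, each by its probe set with the highest mean, with bars of ± 1 SE and grey bars for the range when 1 array is left out. G6PC3 at -3.85 and SLC37A4 at -2.90 are the lowest, PHKG1 at 2.31 is the highest with a wide error, and PPP1CC and GSK3B turn negative when arrays are scaled to hybridization controls.

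Genes whose pattern over the 4 arrays was most like that of PGM1 and GYS1 were sought among the 12635 other tested genes by Euclidean distance between log2 values centred on their mean. For PGM1 the nearest were the cyclin gene CCNI (distance 0.043), the protease gene CORIN (0.047) and the transcription factor gene GATA6 (0.073). For GYS1 they were the phosphodiesterase gene PDE4B (0.178), the folate enzyme gene MTHFD1 (0.181) and LYRM7 (0.194), with log2 differences of -3.44, -3.16 and -3.22. CORIN was not called (log2 difference 1.81, limma adjusted p = 0.0777). It had 207 and 218 in hypoxia and 40.5 and 47.3 in normoxia, and reached the filter only through hypoxia. All 4 values lay under the brightest Bacillus control of their own array. The likeness is over 4 arrays only.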

How the data were processed

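Per the labels' protocols, 6 µg of total RNA went into biotin-labelled cRNA for each array. The deposited values are intensities on a linear scale, which the submitters' processing notes credit to MAS5 (version not given in the sources used here), and the 4 arrays share a trimmed mean (500.1, without the lowest and highest 2% of values). Detection calls were not used.

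Probe sets were named through the platform annotation, with symbols of other genes updated through RefSeq by gene identifier (19735 of 19777 matched). Of 54675 probe sets, 62 controls were left out. All others with a mean signal of at least 97.4 were fitted together as log2(signal + 23.7), 23.7 being the 25th percentile of all values, with limma 3.58.1 in R 4.3.3 (lmFit, eBayes with an intensity trend, two-sided, Benjamini-Hochberg adjusted over 27304 probe sets, threshold 0.05). The fit was tested on simulated data. The number of arrays limits the precision, and an exact permutation test of 2 against 2 cannot go below p = 0.333. Figures used Python 3.11.15 and matplotlib 3.10.9.

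Named were all members, the called genes of the list of 29, and the 3 nearest genes to the most changed called member in each direction. Other genes and second probe sets were named after their values were seen. Members, lists and alternatives were chosen with earlier results of these data known. Letters A and B were not treated as pairs: deviations from the group means of arrays of 1 letter correlated at 0.06 over probe sets, and no label says what the letters share.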

Additional observations from a re-analysis of the deposited data

How the results depend on the processing

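The log2 differences of the 11 tested member probe sets were recomputed under 15 alternatives, which gave 161 values. Of these, 135 kept direction and side of the threshold, 14 kept direction but lost the call, 6 kept direction and gained it, and 6 changed sign. Among the sign changes, GBE1 and UGP2 also lost their calls (limma adjusted p = 0.857 and 0.228). All 6 sign changes were in probe sets of GBE1 (-0.15), UGP2 (-0.93) and PPP1R3B (-1.27 and -0.67) when scaled to the hybridization controls, and in PPP1R3B without normoxia B (-0.14) or hypoxia B (-0.06), a probe set not called in any setting whose range without 1 array was -0.14 to 0.34. Without the variance trend UGP2 (adjusted p = 0.187), PYGL (adjusted p = 0.131) and PGM2 (adjusted p = 0.124) lost their calls, and UGP2 also did without a filter (adjusted p = 0.0780). For the 7 called genes of the wider list and the 6 nearest genes, alternatives chosen after seeing the data gave 193 values, of which 168 kept both and 2 changed sign (PPP1CC -0.85 and GSK3B -0.86, scaled to the hybridization controls).

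The number of probe sets called higher was 110 scaled to the hybridization controls, 1927 with 1 probe set per gene, 1704 without the trend and 2267 to 5000 without 1 array, and that called lower was 10150, 2876, 2120 and 2043 to 6785. Called probe sets split 44.5% higher, 53.9% when scaled to the 75th percentile and 1.07% when scaled to the controls. Member probe sets called higher numbered 0 scaled to the controls, those called lower 2 without the trend and 1 to 5 without 1 array. Genes of the wider list called higher numbered 1 under quantile normalization, 0 scaled to the controls, 1 without a filter, 0 without the trend and 1 to 3 without 1 array, and those called lower 10 scaled to the controls, 1 without the trend and 3 to 7 without 1 array. With the letters as a replicate block, 4 member probe sets were called higher and 4 lower, PPP1R3B 222662_at being added (adjusted p = 0.0293), with 4446 and 5669 over all probe sets. In the wider list the block gave 3 higher and 6 lower, adding PHKA2 (adjusted p = 0.0234) and EPM2A (adjusted p = 0.0191). The block can give far smaller limma adjusted p-values than the main fit (for PGM1 4.63e-17 against 1.52e-04). So few arrays cannot bear out values of that size, so the added calls are not relied on. The causes of these changes were not tested. Signals under the brightest Bacillus control limit what can be said of GYS1 in hypoxia and of PPP1R3C.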
